A study of Mus musculus with 4 samples.

Results

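The 10 genes described here are the mouse MHC class II (MHC-II) genes, their chaperones and their master regulator: Ciita, Cd74, H2-Aa, H2-Ab1, H2-Eb1, H2-DMa, H2-DMb1, H2-DMb2, H2-Oa and H2-Ob. They were chosen by gene name and are 10 of the 56748 genes listed in the count table. RNA-seq was carried out on the small intestine (SI) of WT (p53+/+) mice and of p53-/- mice, with 2 libraries per genotype, all from animals that had received 12 Gy total-body irradiation (TBI) from a Cs-137 γ-source 1 day earlier. Per the study's methods, mice were 8 to 12 weeks old, age- and gender-matched, and obtained from the Jackson Laboratory. The p53-/- mice lack p53 in every cell, immune cells included, and every animal was irradiated, so the comparison is between genotypes post-TBI and holds no unirradiated SI. The libraries carry the numbers 7 and 8 (WT) and 9 and 10 (p53-/-), which are used here as names only.

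MHC-II molecules display peptides from endosomes to CD4+ T cells. An α chain and a β chain pair in the endoplasmic reticulum with the invariant chain Cd74, which fills the groove and guides the complex to endosomes. There H2-DM removes the remnant of Cd74 and lets peptides exchange, and H2-O binds H2-DM and holds it back, mainly in B cells. Ciita, the class II transactivator, binds no DNA itself and is recruited to these promoters by RFX, CREB and NF-Y, which sit on the X and Y boxes. B cells, dendritic cells and macrophages carry MHC-II, and epithelial cells of the SI can acquire it when interferon-γ induces Ciita.

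The promoters of 6 members are shown because they carry the X and Y boxes through which Ciita acts. They come from RefSeq (build GRCm38.p6), whose promoter table covers 250 bases before to 50 bases after each gene's start and held 8 promoters of 7 members, H2-DMa having 2. Ciita, Cd74 and H2-Ab1 had no entry there. Capitals mark AAC, a part of the X box, and GATTGG, the Y box (an inverted CCAAT). Each window runs 5′ to 3′ on the strand of the gene. The windows lie at chr17:34287855-34287914 (minus strand) for H2-Aa, chr17:34305766-34305824 (plus) for H2-Eb1, chr17:34153087-34153146 (plus) for H2-DMb1, chr17:34145116-34145175 (plus) for H2-DMb2, chr17:34238808-34238864 (plus) for H2-Ob and chr17:34092293-34092352 (plus) for H2-Oa.
H2-Aa: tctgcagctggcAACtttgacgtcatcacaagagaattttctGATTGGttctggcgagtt
H2-Eb1: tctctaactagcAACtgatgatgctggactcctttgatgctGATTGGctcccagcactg
H2-DMb1: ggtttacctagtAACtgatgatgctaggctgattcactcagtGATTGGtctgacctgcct
H2-DMb2: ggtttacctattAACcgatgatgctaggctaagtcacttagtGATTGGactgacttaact
H2-Ob: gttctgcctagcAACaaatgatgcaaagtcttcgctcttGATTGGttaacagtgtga
H2-Oa: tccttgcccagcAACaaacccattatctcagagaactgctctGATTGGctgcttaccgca

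AAC followed by GATTGG, with starts 27 to 31 bases apart, was found in 6 of the 8 member promoters, all on the strand of the gene. Among all 32851 promoters in the table, 1.11% held this pair on either strand. GATTGG by itself, which is contained in the pair, was in 7 of the 8 member promoters and in 16.1% of all promoters. Neither H2-DMa promoter held the pair in these letters. The spacing was chosen after these sequences had been seen, so the match is a description of the windows and no test. The 6 genes with the same arrangement fell on both sides of the expression patterns described next: H2-Aa, H2-Eb1 and H2-DMb1 were similar in the p53-/- libraries, while H2-DMb2, H2-Ob and H2-Oa differed greatly between them.

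The libraries held 15005479 to 22173164 counts of reads. In the p53-/- libraries, Phlda3, a direct p53 target, fell by 5.68 on the log2 scale (adjusted p = 0.00566 by the quasi-likelihood test of edgeR, Benjamini-Hochberg adjusted, as for all edgeR values below). Trp53 itself was at 57.7 and 47.1 CPM in WT and 19.8 and 22.5 CPM in p53-/- libraries. CPM, the unit of level used here, is a count relative to its library's total after TMM scaling of the libraries to each other. Library 10 stood apart from the rest: the ribosomal RNA gene Rn18s-rs5 took 4.59% of its counts against 0.296% to 0.863% elsewhere, Xist, the RNA of the inactive X chromosome, had 588 counts against 0 to 4, and 10 B cell markers summed to 580 CPM against 28.8 CPM in library 9 and 2.29 and 3.05 CPM in WT. The Y-linked genes Ddx3y, Eif2s3y, Kdm5d and Uty were present in all 4 libraries, at 19.1 to 37.8 CPM in WT, 23.0 to 33.9 CPM in library 9 and 20.0 to 34.7 CPM in library 10. Xist set library 10 apart from the other libraries, while the range of its Y-linked genes lay within that of the WT libraries. The methods state gender matching, and no sex is assigned to library 10 here. The part of Xist and of the Y-linked genes in the results was not tested. Fits of the members and of each gene list are therefore given with and without library 10. Within a genotype the libraries were further apart than counting error (chi-square over degrees of freedom, 48.0 in WT and 69.5 in p53-/-). The tests below measure the spread between 2 libraries per genotype, which the study's methods describe as biological replicates.

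All 10 class II genes were higher in both p53-/- libraries than in both WT libraries, and the joint share of the 10 genes was 0.0324% and 0.0730% of WT counts against 0.434% and 0.679% of p53-/- counts. In bulk SI, a difference in the number of cells that carry a transcript and a difference in RNA per cell cannot be told apart. Enough counts for the test were present for 9 of the 10 genes, H2-Oa being the exception. Of these 9, Ciita, H2-DMa and H2-DMb1 rose past the threshold of an adjusted p of 0.05, and 6 did not pass, while all 9 had an unadjusted p under 0.05, as did 18.0% of all tested genes (1617 higher and 1275 lower in p53-/-). Across the 16094 genes tested, 0.298% were higher and 0.193% lower past this threshold. Groups that did not overlap, with p53-/- above WT, were found for all 9 tested members and for 26.4% of all tested genes. The median log2 fold change of the 9 members was 3.55, against -0.0084 over all tested genes. At an adjusted p under 0.1, 7 members were past the threshold, as were 1.48% of tested genes in this direction.

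**Figure D1:**
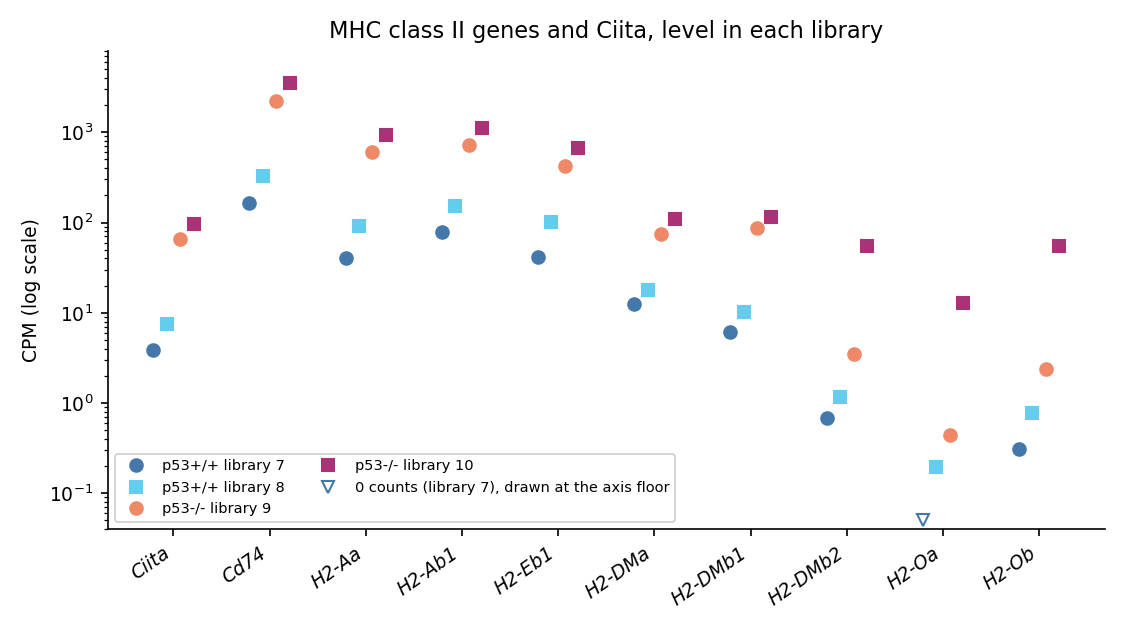
Level of each of the 10 genes in each library, in CPM on a log scale, with 1 point per library. For each gene both p53-/- points lie above both WT points, and for H2-DMb2, H2-Oa and H2-Ob library 10 lies 15.5 to 29.3 times above library 9.

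Ciita (ENSMUSG00000022504), the class II transactivator, was at 3.84 CPM in library 7 and 7.46 CPM in library 8 of WT. In p53-/- SI it was at 65.3 CPM in library 9 and 97.5 CPM in library 10. The lower p53-/- library was thus well above the higher WT library, and the p53-/- libraries were closer to each other (1.49 times apart) than the WT libraries were (1.94 times). Mean levels were 5.65 ± 2.56 CPM in WT and 81.4 ± 22.7 CPM in p53-/- (SD, n = 2). Its log2 fold change of 3.85 (standard error 0.392) passed the threshold (edgeR adjusted p = 0.0410). Leaving out library 10 gave 3.57 (standard error 0.481) and an edgeR adjusted p of 0.407.

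Cd74 (ENSMUSG00000024610), the invariant chain, was the most abundant member. It was at 166 and 328 CPM in WT and at 2235 and 3542 CPM in p53-/- libraries, so that no WT library came near a p53-/- library. Its fitted log2 fold change of 3.55 (standard error 0.482) did not pass the threshold (edgeR adjusted p = 0.0569). Cd74 made up 47.6% and 46.2% of the counts of all 10 genes in WT and 53.1% and 52.9% in p53-/- libraries.

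The classical chains are the α chain H2-Aa and the β chain H2-Ab1, which together form I-A, and the I-E β chain H2-Eb1. H2-Aa (ENSMUSG00000036594) was at 40.0 and 90.8 CPM in WT and at 600.2 and 934 CPM in p53-/- SI. H2-Ab1 (ENSMUSG00000073421) was at 78.8 and 152 CPM in WT and at 716 and 1106 CPM in p53-/- SI. H2-Eb1 (ENSMUSG00000060586) was at 41.0 and 103 CPM in WT and at 427 and 669 CPM in p53-/- SI. For each chain the groups did not overlap, and library 8 was further above library 7 (1.92 to 2.50 times) than library 10 was above library 9 (1.54 to 1.57 times). Fitted log2 fold changes were 3.55 (standard error 0.490) for H2-Aa, 2.98 (0.424) for H2-Ab1 and 2.93 (0.509) for H2-Eb1. None of the 3 passed, with edgeR adjusted p of 0.0578, 0.0596 and 0.0895 respectively. The partner α chain of H2-Eb1, H2-Ea, had 0 counts in all 4 libraries, which allows up to 3 counts in each.

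H2-DM, the peptide exchange factor, is a dimer of H2-DMa with either H2-DMb1 or H2-DMb2. H2-DMa (ENSMUSG00000037649) was at 12.4 and 18.0 CPM in WT and at 74.8 and 108 CPM in p53-/- SI, and rose by 2.59 on the log2 scale (standard error 0.282, edgeR adjusted p = 0.0433). H2-DMb1 (ENSMUSG00000079547) was at 6.19 and 10.2 CPM in WT and at 87.6 and 115 CPM in p53-/- SI, a rise of 3.63 on the same scale (standard error 0.307, edgeR adjusted p = 0.0279). Both genes had the smallest standard errors among the members and p53-/- libraries that lay near each other. H2-DMb2 (ENSMUSG00000037548), the other β chain, was at 0.681 and 1.17 CPM in WT, at 3.51 CPM in library 9 and at 54.3 CPM in library 10. The groups did not overlap, but most of the H2-DMb2 signal was in library 10, which had 1092 counts against 80 in library 9 and 11 and 18 in WT. The fitted difference was 4.96 on the log2 scale (standard error 1.36, edgeR adjusted p = 0.166) with library 10 and 1.96 (standard error 0.773, edgeR adjusted p = 0.701) without it. H2-DMb1 and H2-DMb2 are near-identical over part of their length: 22.7% of the 50-base stretches of H2-DMb1 transcripts and 21.2% of those of H2-DMb2 were shared between them, so some reads could be assigned to either and the split between them is uncertain.

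H2-O, the inhibitor of H2-DM, is formed by H2-Oa and H2-Ob. H2-Ob (ENSMUSG00000041538) was at 0.309 and 0.779 CPM in WT, at 2.41 CPM in library 9 and at 55.3 CPM in library 10, from 5, 12, 55 and 1112 counts. H2-Oa (ENSMUSG00000024334) had 0 and 3 counts in WT, 10 in library 9 and 258 in library 10. Both chains thus rested on 12 counts or fewer in each WT library and had most of their counts in library 10. The fitted difference of H2-Ob was 5.72 on the log2 scale (standard error 1.61, edgeR adjusted p = 0.171), and without library 10 it was 2.17 (standard error 0.938, edgeR adjusted p = 0.733). H2-Oa was not tested. The ratio of its pooled counts, over library size, was 65.7 for both p53-/- libraries over WT (exact 95% interval 22.3 to 321) and 4.61 for library 9 alone (1.19 to 26.1). These intervals cover counting error only, and the 3 WT counts set their width. H2-Eb2, a further class II β chain gene of the region, had 3 and 0 counts in WT, 21 in library 9 and 499 in library 10. Its ratio for library 9 alone over WT was 9.69 (exact 95% interval 2.89 to 50.7).

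**Figure D2:**
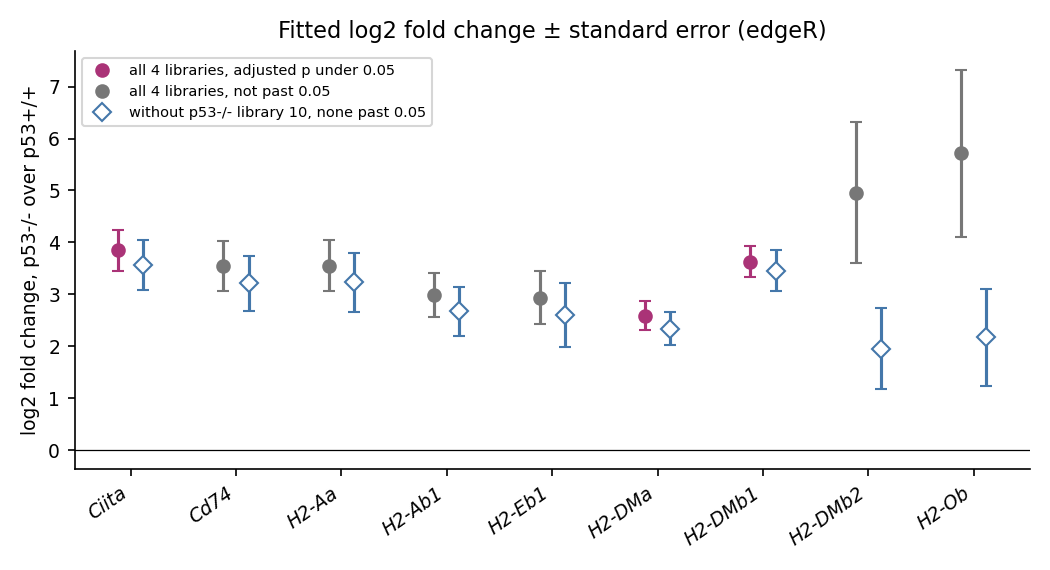
Fitted log2 fold change of p53-/- over WT with its standard error for the 9 tested genes, from all 4 libraries (circles) and without library 10 (diamonds). Values lie between 2.59 and 5.72 with all libraries, and between 1.96 and 3.57 without library 10, where H2-DMb2 and H2-Ob move most.

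Without library 10, the edgeR test called 0 of the 9 members and 0 of all tested genes, while 7 of the 9 members and 7.47% of all tested genes had an unadjusted p under 0.05 and the members' median log2 fold change was 2.67. The log2 fold change in this fit was 3.46 for H2-DMb1, 3.23 for H2-Aa, 3.21 for Cd74, 2.67 for H2-Ab1, 2.60 for H2-Eb1 and 2.34 for H2-DMa. It held 1 p53-/- library, which was assumed to vary as the WT libraries do. The members' median log2 fold change was 3.84 without library 9, 3.14 without library 7 and 4.12 without library 8. Each of these values also comes from a fit with 1 library in a genotype. DESeq2 with all 4 libraries called 9 of the 10 members, and it called 5.05% of its tested genes higher. The direction of all 9 tested members was the same in each of these fits.

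The p53-/- libraries divided the members into a group of 7 that were similar between them and a group of 3 that were not. Library 10 was 1.32 to 1.58 times as high as library 9 for Ciita, Cd74, H2-Aa, H2-Ab1, H2-Eb1, H2-DMa and H2-DMb1. For H2-DMb2, H2-Ob and H2-Oa it was 15.5, 22.9 and 29.3 times as high. The sum of the 10 B cell markers differed 20.1-fold between the same libraries, follicle and M cell markers 3.58-fold, pan-leukocyte markers 4.51-fold, T cell markers 1.93-fold, dendritic cell markers 1.89-fold and macrophage and monocyte markers 2.12-fold. Among the macrophage and monocyte markers, Lyz2 was 7.73 times as high in library 10 as in library 9. The others of that list were 0.644 to 1.69 times as high, so Lyz2 set most of its difference. Endothelial markers differed 1.28-fold, and pan-epithelial markers were 0.827 times as high in library 10. The 3 divergent members thus lay beside the B cell markers in size of difference, and the other 7 lay between endothelial and dendritic cell markers.

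**Figure D3:**
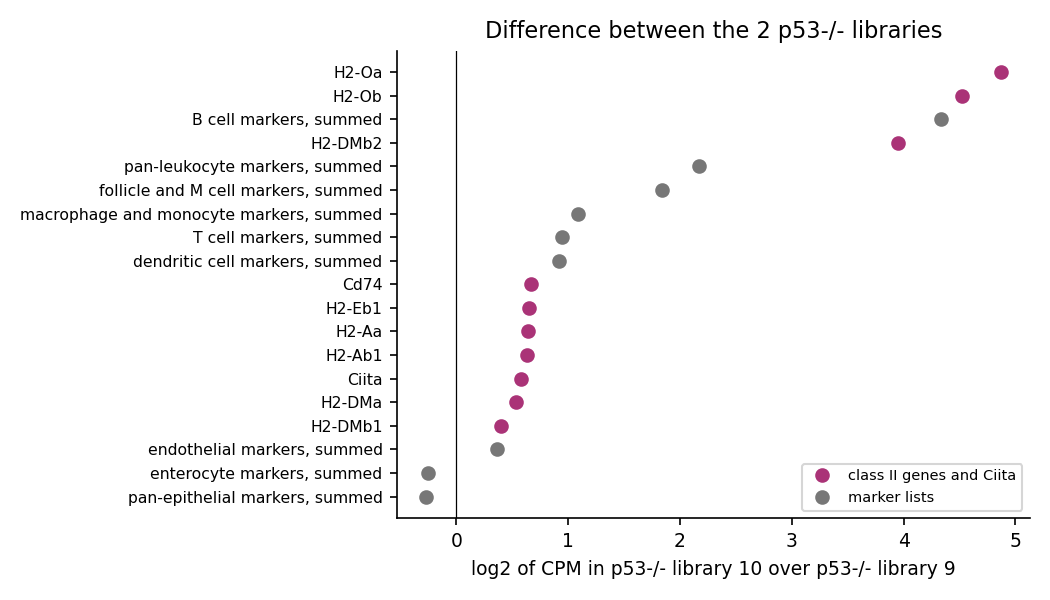
Log2 of the CPM in p53-/- library 10 over p53-/- library 9 for each of the 10 genes and for the summed CPM of 9 marker lists. H2-Oa, H2-Ob and H2-DMb2 lie at 3.95 to 4.87 with the B cell markers, and the other 7 genes at 0.40 to 0.66.

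In library 9 the group of 7 was 4.92 to 11.6 times the WT mean. The summed B cell markers were 10.8 times, T cell markers 7.89 times, pan-leukocyte markers 3.49 times and macrophage and monocyte markers 1.35 times their WT mean in that library. Ciita was 11.6 times, H2-DMb1 10.7 times, H2-Aa 9.18 times and Cd74 9.04 times the WT mean there. H2-Ab1 was 6.22 times, H2-Eb1 5.94 times and H2-DMa 4.92 times that mean. H2-DMb2 and H2-Ob were 3.79 and 4.43 times the WT mean in the same library. Library 9 without library 10 therefore still held the 7 genes above both WT libraries, at a level of 1 library with no replicate of its own. The WT libraries also differed, with library 8 1.44 to 2.50 times library 7 for the 7 genes.

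Levels per length, as CPM per kb of exon, can be compared between genes. In WT, the means were 147 for Cd74, 44.9 for H2-Ab1, 36.9 for H2-Eb1 and 17.2 for H2-Aa. H2-DMb1 followed at 4.87, H2-DMa at 4.41, Ciita at 0.592, H2-DMb2 at 0.529, H2-Ob at 0.101 and H2-Oa at 0.0692. The order was the same in both WT libraries. The ranges of the WT libraries nonetheless overlapped between neighbours, except between Cd74 and H2-Ab1, H2-Aa and H2-DMb1, H2-DMa and Ciita, and H2-DMb2 and H2-Ob. In library 9 the order was the same, from 1331 for Cd74 through 279 for H2-Ab1, 219 for H2-Eb1, 158 for H2-Aa, 52.1 for H2-DMb1 and 21.7 for H2-DMa to 6.85 for Ciita. In library 10, H2-DMb2 at 31.1 stood level with H2-DMa at 31.3, and H2-Ob at 10.3 and H2-Oa at 9.12 stood level with Ciita at 10.2. The exon length counts every annotated exon of a gene, so genes with retained introns in the annotation appear lower.

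Ratios between members within a library do not depend on the scaling of the libraries. H2-Aa over H2-Ab1, per kb of exon, was 0.343 and 0.405 in WT and 0.567 and 0.571 in p53-/- libraries. Cd74 over H2-Ab1 was 3.23 and 3.31 in WT and 4.78 and 4.90 in p53-/- libraries. In both ratios the p53-/- libraries were nearly equal and lay above WT, so H2-Ab1 differed less between genotypes than H2-Aa and Cd74 did. H2-DMa over H2-DMb1 was 0.980 and 0.860 in WT and 0.416 and 0.457 in p53-/- libraries. H2-Ab1 over Ciita was 76.2 and 75.5 in WT and 40.7 and 42.1 in p53-/- libraries. These last ratios were lower in p53-/- SI by about the same factor in both libraries, with a mean ratio of 0.474 and 0.546 of that in WT. H2-Eb1 over H2-Ab1 overlapped between genotypes, at 0.688 and 0.894 in WT and 0.787 and 0.799 in p53-/- libraries. With 2 libraries against 2, a two-sided exact permutation test cannot give a p below 0.333, and each of the 4 non-overlapping ratios above had this value.

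**Figure D4:**
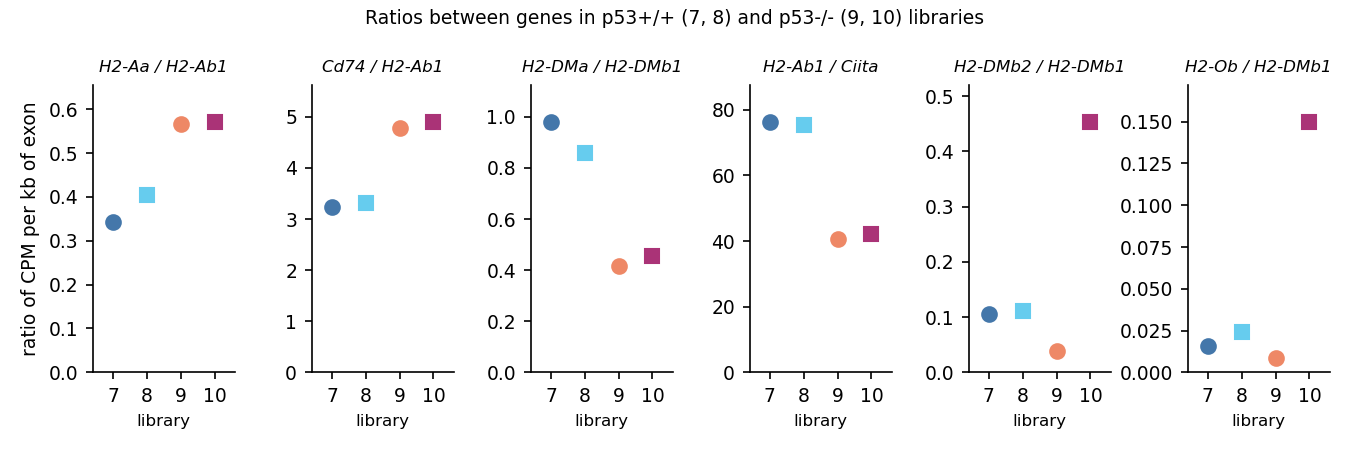
Ratios of CPM per kb of exon between pairs of members in each library, on linear axes that start at 0. The first 4 ratios separate WT (7, 8) from p53-/- (9, 10), whereas H2-DMb2 and H2-Ob over H2-DMb1 are high in library 10 alone, at 0.453 and 0.150.

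The choice between the β chains of H2-DM also varied between libraries. H2-DMb2 was 9.91% and 10.3% of the joint counts of H2-DMb1 and H2-DMb2 in WT, 3.85% in library 9 and 32.0% in library 10. Library 9 was therefore below both WT libraries in this share and library 10 above them.

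Cell type markers were set beside the classical chains and Cd74, since each of these cell types can occur in whole SI. Among the 10 B cell markers, Pax5, Fcer2a and Blk had 0 counts in both WT libraries. The 4 class II genes were 142 and 221 times the summed CPM of the B cell markers in WT, 138 times in library 9 and 10.8 times in library 10. Relative to B cell markers, library 9 was close to WT library 7, and library 10 was far below the other 3.

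The sum of 9 T cell markers was 5.82 and 9.86 CPM in WT and 61.8 and 119 CPM in p53-/- libraries, with Cd8b1 at 0 counts in both WT libraries. Class II genes were 56.1 and 68.3 times this sum in WT and 64.3 and 52.5 times in p53-/- libraries. The ratio to T cell markers thus overlapped between genotypes. It overlapped as well for 6 pan-leukocyte markers, whose sum was 28.9 and 68.3 CPM in WT and 170 and 766 CPM in p53-/- libraries, giving ratios of 11.3 and 9.86 in WT and 23.4 and 8.16 in p53-/- libraries.

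For the other lists, the class II genes were higher relative to the markers in both p53-/- libraries than in both WT libraries. Dendritic cell markers (9 genes) summed to 3.53 and 15.3 CPM in WT and 29.4 and 55.6 CPM in p53-/- libraries, and the ratio to them was 92.5 and 44.0 in WT and 136 and 113 in p53-/- libraries. Macrophage and monocyte markers (10 genes) summed to 174 and 363 CPM in WT and 363 and 770 CPM in p53-/- libraries, and the ratio was 1.87 and 1.85 in WT and 11.0 and 8.12 in p53-/- libraries. The macrophage sums of WT library 8 and p53-/- library 9 were both 363 CPM, but single markers differed in both directions. Mertk was at 140 CPM in library 8 and 91.0 CPM in library 9, and Csf1r at 36.9 and 49.3 CPM. In library 10, Lyz2 alone was at 411 CPM. For 5 endothelial markers, with sums of 22.5 to 62.4 CPM in WT and 51.1 to 65.6 CPM in p53-/- libraries, the ratio was 14.5 and 10.8 in WT and 77.9 and 95.4 in p53-/- libraries. For 8 pan-epithelial markers, which were highest in WT, it was 0.0133 and 0.0379 in WT and 0.239 and 0.454 in p53-/- libraries. The part of these cell types in the class II levels was not tested.

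H2-Ob and H2-DMb2 summed were 0.432 and 0.638 times the B cell markers in WT, 0.205 times in library 9 and 0.189 times in library 10. Between the p53-/- libraries this ratio was close, while the B cell markers differed 20.1-fold.

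The DNA-binding factors that recruit Ciita are Rfx5, Rfxap, Rfxank, Nfya, Nfyb, Nfyc and Creb1. All 7 genes were tested, 0 passed the edgeR test, 0 had an unadjusted p under 0.05 and DESeq2 called 0. Their median log2 fold change was -0.08 against -0.0084 over all tested genes. Rfx5, which binds the X box, was at 5.57 and 8.56 CPM in WT and at 8.63 and 14.8 CPM in p53-/- libraries, and had the highest value of the 7 at 0.73 (standard error 0.413). Without library 10 the median was 0.06 and 0 of the 7 had an unadjusted p under 0.05.

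Of 13 tested genes that act upstream of Ciita, 0 passed the edgeR test, 8 had an unadjusted p under 0.05 (18.0% over all tested genes), and their median log2 fold change was 1.07. Without library 10 these values were 6 genes (7.47% over all tested genes) and 1.06. DESeq2 called 7 of them higher and Ifngr1 lower, where it called 5.05% of all genes higher and 3.50% lower. Irf1, which binds the interferon-responsive promoter of Ciita, was at 135 and 65.5 CPM in WT and at 252 and 265 CPM in p53-/- libraries. Its p53-/- libraries lay above both WT libraries, by a fitted 1.37 on the log2 scale (standard error 0.358, edgeR adjusted p = 0.156). Socs1, a feedback inhibitor of interferon-γ signalling, differed by 2.08 on that scale (standard error 0.455, edgeR adjusted p = 0.119). Irf4, a factor of lymphocytes and dendritic cells, differed by 3.79 (standard error 0.686, edgeR adjusted p = 0.0946). Without library 10 the fitted values were 1.39 for Irf1, 1.75 for Socs1 and 3.16 for Irf4. Ifng itself had 0 and 2 counts in WT and 8 and 13 in p53-/- libraries and was too low to test. The receptor chain Ifngr1 was at 341 and 317 CPM in WT and at 219 and 198 CPM in p53-/- libraries (log2 fold change -0.66, edgeR adjusted p = 0.171).

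The endosomal enzymes that prepare peptides and cut Cd74 had a median of 0.07 on the log2 fold change scale across 9 tested genes. Of these, 0 passed the edgeR test and 2 had an unadjusted p under 0.05, a share near the 18.0% of all tested genes. DESeq2 called Ctsd lower and 0 higher, where it called 3.50% of all genes lower and 5.05% higher. Without library 10 the median was 0.09. Ctss, the protease that trims Cd74 in antigen-presenting cells, was at 248 and 266 CPM in WT and at 224 and 271 CPM in p53-/- libraries, so its groups overlapped where those of Cd74 did not. Ctsd was at 328 and 297 CPM in WT and at 139 and 191 CPM in p53-/- libraries (log2 fold change -0.93, edgeR adjusted p = 0.143).

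For surface turnover and costimulation the median was 2.80 across 9 tested genes. Of the 9, 0 passed the edgeR test and 5 had an unadjusted p under 0.05 (18.0% over all tested genes). DESeq2 called 4 higher, where it called 5.05% of all genes higher. Without library 10 the median was 1.46. Marchf1, a ligase that removes MHC-II from the surface, was at 0.619 and 1.56 CPM in WT and at 3.90 and 11.3 CPM in p53-/- libraries. Cd83, which opposes that removal, had 42 and 36 counts in WT, 111 in library 9 and 1182 in library 10. Cd83 resembled H2-DMb2 and H2-Ob in being high mainly in library 10. Cd274 (PD-L1), an inhibitory ligand, was at 1.11 and 3.76 CPM in WT and at 22.2 and 29.2 CPM in p53-/- libraries, or 3.40 on the log2 scale (standard error 0.597, edgeR adjusted p = 0.0913) and 3.21 without library 10. Cd274 was therefore similar in both p53-/- libraries, like Ciita.

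On the T cell side, 5 of 6 receptor genes were tested, 0 passed the edgeR test and all 5 had an unadjusted p under 0.05 (18.0% over all tested genes). DESeq2 called 5 higher, where it called 5.05% of all genes higher. The median log2 fold change of the 5 was 4.40, and without library 10 it was 2.83. Of these genes, Ctla4 rested on 1 and 2 counts in WT, Cd28 on 1 and 5, and Icos, whose value is the median of 4.40, on 3 and 4. Cd4, the coreceptor for MHC-II, was at 28 and 77 counts in WT and 216 and 499 counts in p53-/- libraries. Lag3, an inhibitory receptor for MHC-II, was at 0.495 and 2.14 CPM in WT and at 7.89 and 12.6 CPM in p53-/- libraries. Of the IL12 genes, Il12b, which encodes IL12-p40, had 0 and 1 counts in WT and 11 and 14 in p53-/- libraries, and was not tested. Lif, a cytokine of the IL-6 family, was at 14.9 and 14.6 CPM in WT and at 7.85 and 6.47 CPM in p53-/- libraries (log2 fold change -1.04, edgeR adjusted p = 0.161, DESeq2 adjusted p = 0.0379), and its log2 fold change without library 10 was -0.86. Over all pathway genes listed here, 47 were tested by edgeR, which called 0 in either direction. Of the 47, 24 had an unadjusted p under 0.05 (21 higher, 3 lower), against 18.0% of all tested genes. Among the 54 listed, DESeq2 called 16 higher and 3 lower (Ifngr1, Ctsd and Lif), where it called 5.05% of all genes higher and 3.50% lower. The median log2 fold change of the 47 was 0.40 with all 4 libraries and 0.41 without library 10.

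**Figure D5:**
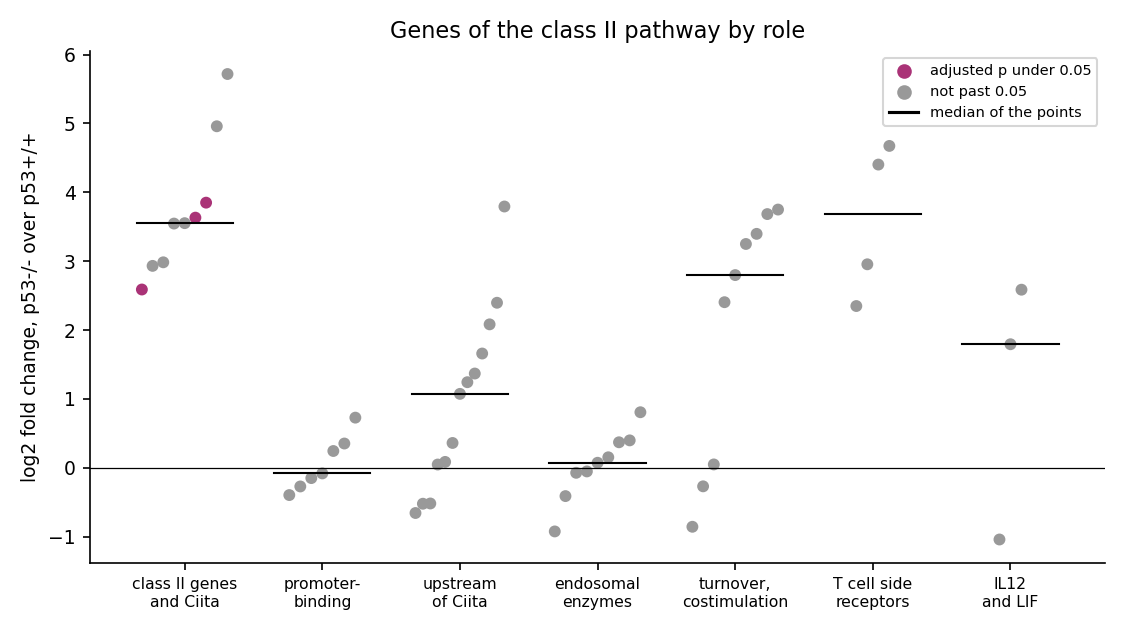
Fitted log2 fold change of p53-/- over WT for each tested gene, grouped by role, with bars at the median of the points and genes past the adjusted p of 0.05 in colour. Genes at or under 3 counts in both WT libraries are left out, and only the class II group holds genes past the threshold (Ciita, H2-DMa and H2-DMb1).

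Genes whose levels over the 4 libraries were most like the mean profile of the 9 tested members were sought among 12281 other tested protein-coding genes, by distance between centred log2 CPM profiles. The nearest 5 were Tnfrsf13b at a distance of 0.128, Ccl20 at 0.213, Itgal at 0.222, Ms4a4b at 0.255 and Traf3ip3 at 0.270. Tnfrsf13b, a receptor of B cells and plasma cells for BAFF and APRIL, was at 0.805 and 1.62 CPM in WT and at 9.55 and 24.7 CPM in p53-/- libraries. Ccl20, the ligand of Ccr6 made by the epithelium over lymphoid follicles, was at 0.433 and 1.04 CPM in WT and at 5.96 and 16.5 CPM in p53-/- libraries. Itgal, the α chain of the leukocyte integrin LFA-1, was at 1.42 and 2.66 CPM in WT and at 16.3 and 44.0 CPM in p53-/- libraries. The members themselves lay farther from this mean, from 0.519 for Cd74 to 2.32 for H2-Ob. That mean averages 7 genes that were similar between the p53-/- libraries with H2-DMb2 and H2-Ob, which were not.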

How the data were processed

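For each gene the authors deposited raw read counts in 4 libraries of poly-A selected SI RNA, sequenced and analysed by Novogene per the study's methods. The submitters' processing notes list fastp, HISAT2 2.0.5, featureCounts 1.5.0-p3 and DESeq2 1.20.0. Genome build, annotation and strand setting are not given in the sources used here, so reads of paralogs, overlapping or antisense genes could have been split or lost. Column names give the genotype, not the replicate number of the labels.

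From the counts, TMM scaling, filterByExpr and the two-sided quasi-likelihood test were run in edgeR 4.0.16 (R 4.3.3), with Benjamini-Hochberg adjustment over 16094 genes and a threshold of 0.05, after being tested on simulated data. Standard errors were taken from the fold change and its F statistic. CPM used the scaled library sizes, and lengths and 50-base stretches came from GENCODE M21. Genes with at most 3 counts in each WT library, and at least 1 in the WT libraries together, have ratios of pooled counts with exact (Clopper-Pearson) 95% intervals. A count of 0 allows up to 3 counts. Alternatives were other scalings and filters, DESeq2 1.42.0, the likelihood ratio test, removal of immunoglobulin and T cell receptor segments, and each library left out. Leaving out Rn18s-rs5 was chosen after seeing the data. The members, gene lists and markers, written from general knowledge, were chosen with earlier results of these data known. Genes named are all members, pathway genes by role, and the 5 protein-coding genes (average log2 CPM 1 or more) nearest the members' mean profile. Markers named singly are those at 0 counts in WT, and macrophage and monocyte markers that differed from each other within their list. Values of some single genes of the lists are not reported here.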

Additional observations from a re-analysis of the deposited data

How the results depend on the processing

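All 9 tested members kept their direction under every alternative run, 116 member values in all, of which 75 stayed on the same side of the threshold, 28 came newly past it and 13 no longer passed. Members past the threshold numbered 3, against 1 with upper-quartile factors, library size only, at least 10 counts in every library (where H2-Ob was not tested) or Rn18s-rs5 left out, 9 with DESeq2 or the likelihood ratio test, 10 with no filter on low counts, 7 at an adjusted p under 0.1, and 0 (without library 10) to 7 when 1 library was left out. H2-DMb1 was the member that passed in each fit with 1. Genes higher past the threshold numbered 48, against 29 with upper-quartile factors, 26 with library size only, 24 with at least 10 counts, 833 by likelihood ratio, 813 by DESeq2, 1433 without a filter, and 0 to 565 with 1 library left out. Genes lower numbered 31, against 20, 20, 18, 462, 563 and 761 under the same alternatives, and 0 to 302 with 1 library left out. Without library 10, edgeR called 0 genes, and 754 higher and 449 lower had an unadjusted p under 0.05. Pathway genes called numbered 0, against 16 higher and 3 lower with DESeq2, 18 and 1 by likelihood ratio, 21 and 1 without a filter, and 0 to 7 higher with 1 library left out. The members' median log2 fold change of 3.55 ranged from 2.67 (without library 10) to 4.12 (without library 8), and without library 7 it was 3.14. The causes of these differences were not tested. No paired analysis was possible because the columns carry the genotype but not the replicate number of the labels. Counts in WT limit H2-Oa, H2-Ob and H2-DMb2, at 0 to 18 per library.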
